A study of Mus musculus with 21 samples.

Results

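Olfactory ensheathing glia wrap the axon bundles of olfactory sensory neurons (OSNs) from the nasal lining to the olfactory bulb. They descend from the neural crest and keep a Schwann-cell-like set of genes: the transcription factor Sox10, the calcium-binding protein S100b, the brain-type fatty acid binding protein Fabp7 and the neuropeptide Npy are used to mark them. Apod, a lipocalin that carries small hydrophobic molecules, and Frzb, a secreted Frizzled-related protein that binds Wnt ligands, are also abundant in these cells, although both are made by connective tissue cells elsewhere.

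The 6 genes S100b, Fabp7, Npy, Sox10, Apod and Frzb were taken by symbol from both deposited expression tables. All 6 were found in each, among 23587 genes for the gg8+OMP mice and 22918 for the gg8 mice. The 21 libraries were made from total RNA of mouse main olfactory epithelium, dissociated with papain and sorted on the red fluorescent protein mCherry. HyperTRIBE is an RNA-binding protein fused to the catalytic domain of the editing enzyme ADAR, which edits transcripts that the protein touches; here the protein was Mex3a, or none.

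In the gg8+OMP table, all mice carried gg8tTA and OMPtTA, drivers of immature and of mature OSNs. With tetO-Mex3a_HyperTRIBE_mCherry (MexHT) there were 6 libraries of mCherry-positive cells, labelled as immature and mature OSNs, and 5 of mCherry-negative cells. With tetO-HyperTRIBE_mCherry (HT), the editing domain without Mex3a, there were 3 of each. In the gg8 table, mice carried gg8tTA and the Mex3a construct without OMPtTA, with 2 libraries of mCherry-positive cells, labelled as immature OSNs, and 2 of mCherry-negative cells. No wild-type or driver-only mice were used in these comparisons, ages are not given in the sources used here, and the negative fraction holds every cell that mCherry did not mark. The labels say that the negative library of a replicate came from the same mouse as its OSN library; of MexHT mouse 6 an OSN library alone is analysed here. Library names date the 2 driver sets differently, so a difference between gg8 and gg8+OMP mice and 1 between dates cannot be told apart; no test was made across the tables.

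Values are TPM, a level scaled to transcript length and to a fixed total per library. The number of reads assigned to genes, recovered from the steps between TPM values, was 7529648 to 15323153 per library. Mex3a averaged 551 ± 378 TPM (SD, n = 6) in MexHT OSN libraries against 39.2 ± 19.8 TPM (SD, n = 3) in HT OSN libraries, which matches the labels. Summed markers of mature OSNs were not confined to the sorted cells. In the gg8+OMP MexHT mice they ran from 1544 to 4922 TPM in OSN libraries and from 261 to 5519 TPM in negative libraries. In the HT mice they ran from 6776 to 10860 TPM in OSN libraries and from 4091 to 8643 TPM in negative libraries. In the gg8 mice they were 175 to 395 TPM in OSN libraries and 5944 to 11010 TPM in negative libraries. Because these are bulk samples, fewer cells of a type and less RNA per cell cannot be told apart.

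The members lie on 5 chromosomes of GRCm38, the assembly that the submitters' processing notes call mm10 (GENCODE M21 gene bounds). S100b (chr10:76253853-76261159, plus strand) and Fabp7 (chr10:57784881-57788450, plus strand) share chromosome 10. Npy is at chr6:49822710-49829507 on the plus strand, and Sox10 (chr15:79154908-79165240), Apod (chr16:31296192-31314808) and Frzb (chr2:80411970-80447625) are on minus strands. The end of S100b overlaps Dip2a on the opposite strand. The strand setting of the counting is not given in the sources used here, so reads of these genes may not have been told apart there.

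The promoter windows of Fabp7, Npy and Apod are shown because the results turn on these 3 genes: Fabp7 and Npy had the higher mean in sorted OSN of the gg8+OMP mice, and Apod in negative cells. Each window runs from 250 bases before to 50 bases after the gene's start in RefSeq (GRCm38.p6), 5′ to 3′ on the gene's own strand: chr10:57784673-57784972 (plus) for Fabp7, chr6:49822460-49822759 (plus) for Npy and chr16:31314759-31315058 (minus) for Apod. Capitals mark ACAAAG and ACAAT, letters that Sox family factors, to which Sox10 belongs, can bind, on either strand.
Fabp7: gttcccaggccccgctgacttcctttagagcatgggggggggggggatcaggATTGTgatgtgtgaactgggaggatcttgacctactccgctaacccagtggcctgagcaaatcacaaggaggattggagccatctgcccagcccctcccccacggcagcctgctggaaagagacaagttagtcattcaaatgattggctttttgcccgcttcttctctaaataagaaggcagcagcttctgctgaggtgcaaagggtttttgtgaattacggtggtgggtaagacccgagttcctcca
Npy: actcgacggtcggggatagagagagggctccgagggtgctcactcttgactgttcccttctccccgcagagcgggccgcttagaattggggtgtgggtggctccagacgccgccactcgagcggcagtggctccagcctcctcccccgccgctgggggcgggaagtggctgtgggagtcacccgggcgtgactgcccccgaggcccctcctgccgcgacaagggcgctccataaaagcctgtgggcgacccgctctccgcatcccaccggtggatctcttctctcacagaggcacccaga
Apod: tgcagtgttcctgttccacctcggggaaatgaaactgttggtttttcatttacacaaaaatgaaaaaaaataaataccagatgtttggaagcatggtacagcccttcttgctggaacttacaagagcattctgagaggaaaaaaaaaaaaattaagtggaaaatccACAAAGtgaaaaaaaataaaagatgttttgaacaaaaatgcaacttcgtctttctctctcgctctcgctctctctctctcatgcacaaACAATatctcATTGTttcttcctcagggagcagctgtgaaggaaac

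The Apod window held ACAAAG once, at bases -84 to -79 from the start counted as 0, and ACAAT 2 times just after the start, once on either strand. The Fabp7 window held ACAAT once on its reverse strand, at -198 to -194, and those of Npy, S100b and Frzb held neither motif. Among 32851 mouse promoter windows of the same length, 18.7% held ACAAAG, 31.0% held ACAAT and 42.9% held either, so the presence in 2 of 5 member windows is near that of promoters at large. The GC content of the windows ran from 37.3% in Apod to 68.0% in Npy. Windows were matched for 5 of the 6 members, all but Sox10.

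The glia genes did not form one pattern. Fabp7 was the most abundant of the 6 in every OSN group, and Apod was the most abundant in every negative group. Apod made up 78.9% to 90.7% of the summed TPM of the 6 genes in MexHT negative libraries and 6.14% to 32.8% in MexHT OSN libraries. Fabp7 made up 2.59% to 14.4% and 49.7% to 81.8% of that sum. The ratio of Fabp7 to Apod TPM was 0.716 to 13.3 in the OSN libraries and 0.0292 to 0.377 in the negative libraries, without overlap. Apod alone did the same, so the ratio is no result apart from Apod. In the gg8+OMP mice Apod was at most 36.0 TPM in OSN and at least 122.8 TPM in negative libraries. In the gg8 mice these limits were 16.1 and 55.7 TPM, and Fabp7 was not higher in OSN there. Negative libraries of the gg8 mice were the closest to the OSN side, with ratios of 0.377 and 0.264.

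**Figure D1:**
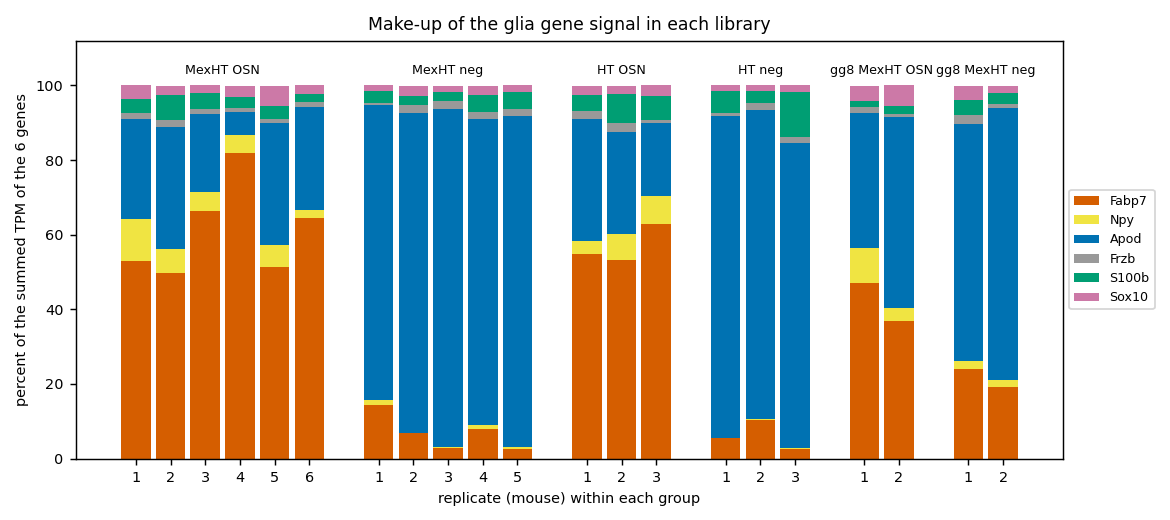
Share of each gene in the summed TPM of the 6 glia genes, as percent, 1 stacked bar per library, grouped by construct and fraction with the replicate number below. Fabp7 takes the largest part of the bar in every OSN library but gg8 replicate 2, where Apod takes 51.4%, and Apod takes the largest part in every negative library.

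Libraries differed in the level of the whole set. In MexHT negative replicate 1 all 6 members were at the highest level of their group, and their TPM summed to 979.5 against 143.6 to 287.4 in the other 4. In MexHT OSN replicate 4, 5 of the 6 were highest, with a sum of 332.9 TPM against 38.3 to 140.8 TPM in the other 5. The negative library also had the highest sums of its group for other glia genes (404.8 TPM), sustentacular cells (2274 TPM, group median 547.3 TPM), horizontal basal cells (1687 TPM, group median 394.1 TPM) and microvillous cells (699.6 TPM, group median 258.5 TPM), and the lowest for fibroblasts and vessels and for immune cells. The OSN library had the highest sum for other glia genes (280.0 TPM, group median 163.9 TPM). Its sum for microvillous cells (14.65 TPM) was level with that of OSN replicate 6 (14.66 TPM) at the low end of the group. The part of these cell mixtures in the results was not tested. Where leaving either library out moved a member's difference between MexHT fractions by over 1.5 times or changed its call, both values are given. Apart from the other glia genes, values of the marker and relative lists come from fits with all libraries alone.

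Apod fell in the sorted OSN of all 3 kinds of mice. In MexHT OSN libraries it was at 12.5, 23.7 and 36.0 TPM (lowest, median, highest of 6), and in MexHT negative libraries at 773, 123, 261, 150 and 136 TPM (replicates 1 to 5). Every OSN library lay below every negative library, and 43.1% of all genes had groups without overlap in this comparison. The difference was -3.19 on the log2(TPM + 1) scale (SE 0.43; limma, adjusted p = 3.64e-05), and it was -2.70 without the 2 libraries named above (adjusted p = 3.38e-05). Of 16522 genes tested in this comparison 63.4% passed the threshold, a share to read the members against: 27.6% were called lower and 35.8% higher.

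The HT mice gave the same direction for Apod, with 14.2, 16.2 and 8.80 TPM in OSN libraries against 253, 143 and 142 TPM in negative libraries. All 3 OSN libraries lay far below the lowest negative library. The difference was -3.66 (SE 0.30; limma, adjusted p = 0.00222), where 11.3% of 17027 genes passed. In the gg8 mice Apod was at 16.1 and 5.64 TPM in OSN libraries against 55.7 and 188 TPM in negative libraries, a difference of -3.28 (SE 0.70; limma, adjusted p = 0.0418). That call, in a comparison where 8.32% of 16490 genes passed, was lost with a pseudocount of 0.1 (adjusted p = 0.0585), with limma-voom (0.0504) and without any of 3 of the 4 libraries. Summed markers of fibroblasts and vessels, cells that can also make Apod, moved the same way, at 131.4 to 248.4 TPM in MexHT OSN libraries and 11360 to 23770 TPM in MexHT negative libraries, and their part in the Apod difference was not tested. Within mice, Apod was lower in the OSN fraction in 5 of 5 MexHT, 3 of 3 HT and 2 of 2 gg8 mice.

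Frzb, the secreted Wnt antagonist, was a low gene throughout. It stood at 0.415, 1.62 and 3.56 TPM in MexHT OSN libraries (lowest, median, highest of 6), from 5 to 26 reads, and at 7.57, 3.27, 5.70, 3.72 and 2.88 TPM in MexHT negative libraries. The groups overlapped in 1 library, OSN replicate 4, which exceeded negative replicates 2 and 5. Frzb differed by -1.08 on the log2(TPM + 1) scale (SE 0.30, limma adjusted p = 0.0074). At such low levels the added 1 TPM narrows a difference. Over the alternative settings with all libraries, Frzb ran from -1.75 to -1.06. In the HT mice it was at 0.963, 1.46 and 0.368 TPM in OSN against 2.64, 3.25 and 2.85 TPM in negative libraries, with no overlap, a difference of -1.06 (SE 0.32) that did not pass (limma, adjusted p = 0.0763). In the gg8 mice it was at 0.677 and 0.0702 TPM in OSN libraries, the second on 1 read, and at 2.12 and 2.47 TPM in negative libraries (difference -1.30, SE 0.48; limma, adjusted p = 0.129). It was lower in the OSN fraction of each of the 5 MexHT, 3 HT and 2 gg8 mice, by as little as 0.05 on the log2 scale in MexHT mouse 4.

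Fabp7, which carries long-chain fatty acids in glia and their precursors, went the other way in the gg8+OMP mice. MexHT OSN libraries held 71.0, 33.1, 93.4, 272.5, 19.7 and 59.9 TPM (replicates 1 to 6), and MexHT negative libraries 140.8, 10.0, 8.40, 14.6 and 3.97 TPM. The negative library of replicate 1 was above all OSN libraries but replicate 4, and the other 4 negative libraries were below all 6 OSN libraries. The difference was 2.01 (SE 0.80; limma, adjusted p = 0.0434). The call was lost with limma-voom (1.85, adjusted p = 0.0865), with median-of-ratios scaling (1.88, 0.0652) and with no filter on low values (0.0578). It was also lost when any of 8 of the 11 libraries was left out, among them OSN replicate 4 (1.60, adjusted p = 0.0906) and, at the weakest, negative replicate 5 (1.59, 0.108). Without the 2 libraries that stood apart it was 2.38 (SE 0.46; limma, adjusted p = 0.00122).

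In the HT mice Fabp7 stood at 24.0, 31.7 and 28.2 TPM in OSN libraries and at 16.3, 17.6 and 4.58 TPM in negative libraries, with every OSN library higher. The difference of 1.25 (SE 0.46) did not pass (limma, adjusted p = 0.114), and it was 0.69 without negative replicate 3 (adjusted p = 0.0737). The gg8 mice did not share this order: OSN libraries were at 20.8 and 4.04 TPM and negative libraries at 20.99 and 49.5 TPM, a difference of -1.67 (SE 0.78; limma, adjusted p = 0.198). Leaving out 1 library moved it from -2.73 without OSN replicate 1 (limma, adjusted p = 0.0428) to -0.62 without OSN replicate 2 (0.522), with -1.07 without negative replicate 2. Fabp7 was higher in the OSN fraction in 4 of 5 MexHT and 3 of 3 HT mice, and in 0 of 2 gg8 mice; MexHT mouse 1 was the exception, at -0.98 on the log2 scale.

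Npy, the peptide that signals through Y receptors, moved with Fabp7 on far fewer reads, 0 to 27 per library. MexHT OSN libraries held 15.0, 4.32, 7.29, 16.2, 2.23 and 2.02 TPM (replicates 1 to 6), and MexHT negative libraries 13.2, 0, 0.587, 1.57 and 0.618 TPM. As with Fabp7, negative replicate 1 was the one negative library among the OSN values, and the other 4 held 3 reads or fewer. The difference of 1.498 (SE 0.67) did not pass (limma, adjusted p = 0.0681), and it passed with the mouse as a block (1.74, adjusted p = 0.00386), a fit to which mouse 6 adds nothing, and without the 2 libraries (1.87, adjusted p = 0.00746). It also passed without negative replicate 1 alone (2.13, limma adjusted p = 0.00423), OSN replicate 5 (1.72, 0.0472) or OSN replicate 6 (1.74, 0.0463). In the HT mice Npy was at 1.55, 4.18 and 3.28 TPM in OSN libraries, and negative libraries had 0, 1 and 1 reads (0, 0.512 and 0.493 TPM). The OSN libraries held 3, 8 and 5 reads, so replicate 1 was itself at 3 reads. Against a floor of 3 reads per negative library, the OSN mean was at least 1.86-fold higher, a bound that rests on these few reads. The Npy difference passed in the HT mice (1.55, SE 0.38, limma adjusted p = 0.0478). That call was lost with a pseudocount of 0.1 (adjusted p = 0.0729), with limma-voom (0.0692) and with all 4 gg8+OMP groups in 1 fit (0.198). It was also lost when any library but negative replicate 2 was left out.

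In the gg8 mice Npy stood at 4.14 and 0.376 TPM in OSN libraries and at 1.89 and 4.58 TPM in negative libraries, so the groups overlapped. The difference was -0.59 (SE 0.75; limma, adjusted p = 0.612), and 0.36 without OSN replicate 2. Npy was higher in the OSN fraction in 5 of 5 MexHT, 3 of 3 HT and 1 of 2 gg8 mice. MexHT mouse 1 again had the smallest gap, 0.17 on the log2 scale.

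Sox10, the neural crest factor that sets glial identity, stood between these patterns. It was at 4.90, 1.74, 2.93, 10.6, 2.15 and 2.03 TPM in MexHT OSN libraries and at 14.0, 4.22, 5.31, 4.53 and 2.60 TPM in MexHT negative libraries, which overlap. The difference of -0.52 (SE 0.42) did not pass (limma, adjusted p = 0.295). It was -0.21 without negative replicate 1, -0.80 without OSN replicate 4 and -0.49 without both, and passed in none of these fits. In the HT mice the OSN values of 1.14, 1.36 and 1.32 TPM lay below the negative values of 4.32, 2.36 and 3.17 TPM (-0.89, SE 0.29; limma, adjusted p = 0.0872). In the gg8 mice 1.87 and 0.605 TPM in OSN libraries lay below 3.33 and 5.11 TPM in negative libraries (-1.26, SE 0.54; limma, adjusted p = 0.171; -0.84 without OSN replicate 2). Sox10 was lower in the OSN fraction in 4 of 5 MexHT, 3 of 3 HT and 2 of 2 gg8 mice, the exception being MexHT mouse 4 at 1.07 on the log2 scale.

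S100b, a calcium-binding protein also secreted by glia, overlapped between the MexHT fractions and lay below the negative libraries in the OSN of the HT and gg8 mice. It was at 5.10, 4.45, 6.09, 9.64, 1.31 and 1.99 TPM in MexHT OSN libraries and at 30.9, 3.28, 6.74, 8.25 and 7.09 TPM in MexHT negative libraries (-0.91, SE 0.49; limma, adjusted p = 0.126). Without negative replicate 1 the difference was -0.47, and without that library and OSN replicate 4 it was -0.68, neither past the threshold. In the HT mice it was at 1.86, 4.62 and 2.80 TPM in OSN and 17.1, 5.54 and 20.7 TPM in negative libraries, with no overlap (-1.80, SE 0.50; limma, adjusted p = 0.0654; -2.33 and 0.0115 without negative replicate 2). In the gg8 mice OSN libraries held 0.680 and 0.247 TPM on 4 and 2 reads, against 3.57 and 7.68 TPM (-2.12, SE 0.55; limma, adjusted p = 0.0628; -2.34 and 0.0482 without OSN replicate 1). S100b was lower in the OSN fraction in 3 of 5 MexHT, 3 of 3 HT and 2 of 2 gg8 mice. These values include any reads of Dip2a counted there.

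**Figure D2:**
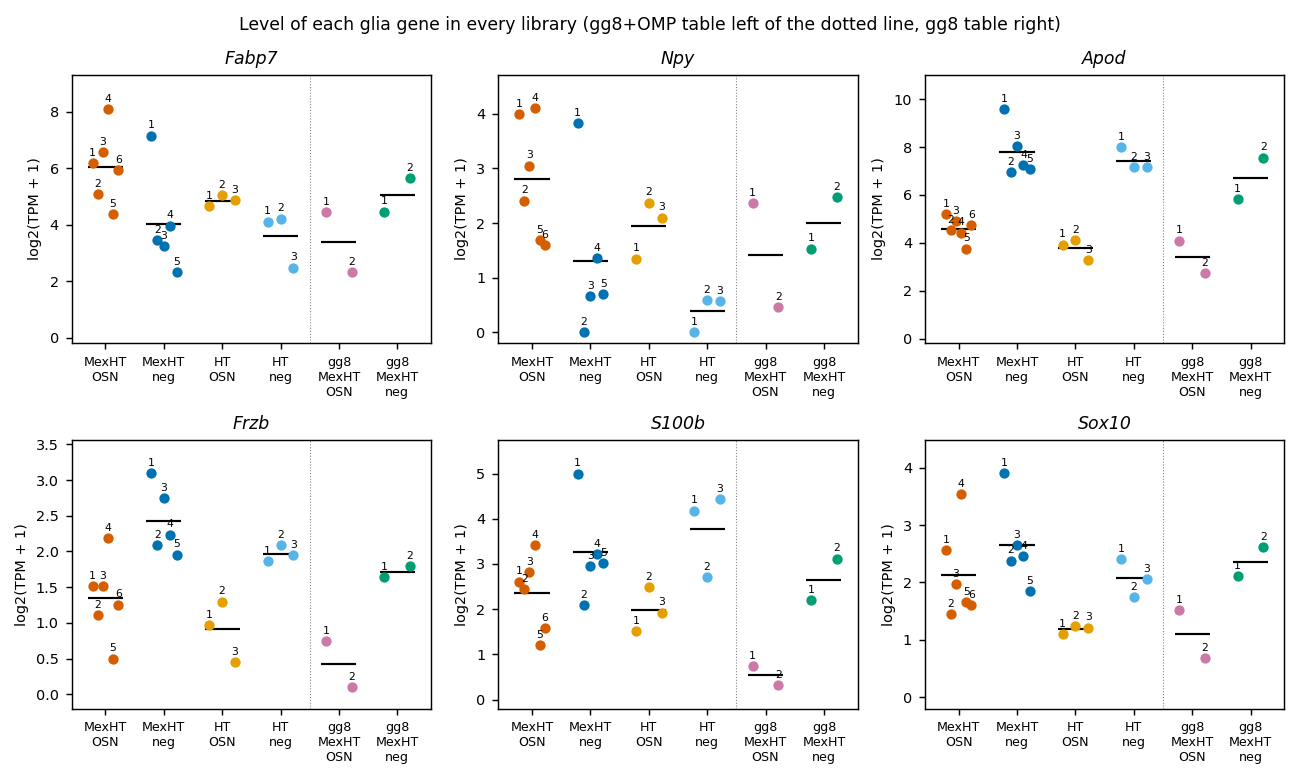
Level of each of the 6 genes as log2(TPM + 1), 1 point per library with its replicate number, and a black bar at the group mean; the 4 groups left of the dotted line are from the gg8+OMP table and the 2 at the right from the gg8 table, which were scaled separately. Apod separates the fractions in all 3 pairs of groups, while negative replicate 1 of the MexHT mice is the highest negative library in all 6 panels.

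Ordered by mean level over the 4 gg8+OMP groups, the genes ran differently. For Apod the order was MexHT negative (288 TPM), HT negative (179 TPM), MexHT OSN (24.3 TPM) and HT OSN (13.1 TPM), and only the middle step was free of overlap between neighbours. For Fabp7 it was MexHT OSN (91.6 TPM), MexHT negative (35.6 TPM), HT OSN (28.0 TPM) and HT negative (12.8 TPM), with the last step free of overlap. Npy kept that order (7.83, 3.19, 3.002 and 0.335 TPM), again with the last step free of overlap. For both genes the MexHT negative mean rests on replicate 1 (140.8 TPM for Fabp7, 13.2 TPM for Npy). By median, MexHT negative lay below HT OSN, at 10.0 against 28.2 TPM for Fabp7 and 0.618 against 3.28 TPM for Npy. For Sox10 the order was MexHT negative (6.12 TPM), MexHT OSN (4.06 TPM), HT negative (3.28 TPM) and HT OSN (1.27 TPM), with the last step free of overlap. For Frzb (MexHT negative 4.62, HT negative 2.91, MexHT OSN 1.71, HT OSN 0.931 TPM) and S100b (HT negative 14.5, MexHT negative 11.3, MexHT OSN 4.76, HT OSN 3.10 TPM) all neighbours overlapped.

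Counted over the 6 genes, 1 was called higher (Fabp7) and 2 lower (Apod, Frzb) between MexHT OSN and negative libraries, which is 3 of 6 where 63.4% of all genes were called. Between HT fractions 1 was called higher (Npy) and 1 lower (Apod), 2 of 6 where 11.3% were called, 2.18% higher and 9.11% lower. All 6 had HT groups without overlap, as had 41.0% of all genes tested there. Between gg8 fractions Apod alone was called, lower as were 7.20% of all genes, and 5 of 6 had groups without overlap, beside 63.6% of all genes. All 6 differences lay below 0 in the gg8 mice, against 4 of 6 in each of the other kinds. The median difference of all genes between MexHT fractions was 0.16, and 0.03 after median-of-ratios scaling; no member changed direction with that scaling in these 3 comparisons.

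**Figure D3:**
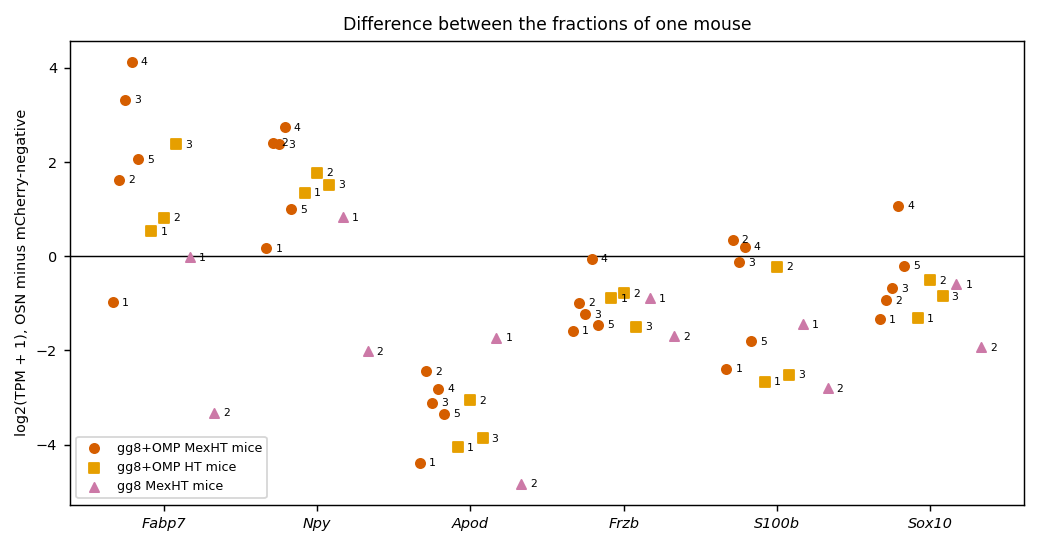
Difference in log2(TPM + 1) between the OSN and the mCherry-negative library of the same mouse, for each gene, with the mouse number beside each point; circles are gg8+OMP MexHT mice, squares gg8+OMP HT mice and triangles gg8 MexHT mice. Apod and Frzb lie below 0 in every mouse, and Npy and Fabp7 lie above 0 in the gg8+OMP mice apart from Fabp7 in MexHT mouse 1.

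Whether the Mex3a construct changed these genes was asked in the sorted OSN, MexHT against HT. All 6 were higher on average in MexHT, and none passed limma's test, in a comparison where 36.8% of 16067 genes were called. At an unadjusted p under 0.05 there was 1, Apod, as were 7589 of all genes tested, and limma-voom called 0 of the 6. Apod averaged 24.3 ± 8.03 TPM (SD, n = 6) against 13.1 ± 3.83 TPM (SD, n = 3), a difference of 0.82 (SE 0.30; limma, adjusted p = 0.0536; 0.98 and 0.00944 without MexHT OSN replicate 5). Sox10 had no overlap, as had 38.4% of all genes tested, with the lowest MexHT library at 1.74 TPM and the highest HT library at 1.36 TPM (0.95, SE 0.43; limma, adjusted p = 0.108). Fabp7 averaged 91.6 ± 92.5 TPM (SD, n = 6) against 28.0 ± 3.87 TPM (SD, n = 3), a difference of 1.19 (SE 0.63; limma, adjusted p = 0.164), which ran from 0.78 without MexHT OSN replicate 4 (adjusted p = 0.197) to 1.52 without MexHT OSN replicate 5, where it passed (adjusted p = 0.0472). Npy differed by 0.87 (SE 0.58; 0.57 to 1.11 with 1 library left out), Frzb by 0.44 (SE 0.36; 0.21 to 0.63) and S100b by 0.37 (SE 0.46; 0.14 to 0.63), all with groups that overlapped.

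The MexHT and HT groups also differed in Xist, the RNA of the inactive X chromosome of females: it was at 58.4 to 139.8 TPM in MexHT OSN libraries and 0.126 to 60.3 TPM in HT OSN libraries. With the Xist level as a covariate, the S100b difference was -0.10, 0 of the 6 passed and 2.05% of all genes were called. The HT OSN libraries carried more macrophage RNA, with C1qa at 432 ± 364 TPM (SD, n = 3) against 51.5 ± 17.03 TPM (SD, n = 6) in MexHT OSN libraries. The part of either in the glia gene differences was not tested further.

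In the mCherry-negative cells, MexHT against HT, 0 of the 6 and 0% of 16860 genes passed limma's test; 3465 genes but 0 of the 6 had an unadjusted p under 0.05, and limma-voom called 0. Fabp7 differed by 0.42 (SE 0.98), and by -0.36 without MexHT negative replicate 1. Apod differed by 0.34 (SE 0.57), and by -0.11 without that library. Sox10 differed by 0.58 (SE 0.42), Npy by 0.92 (SE 0.77) on 3 reads or fewer in 7 of the 8 libraries, Frzb by 0.46 (SE 0.29) and S100b by -0.52 (SE 0.63).

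The test of whether the fraction difference itself differed between constructs called 0 of the 6, where 12.4% of 16785 genes were called, with 0 of the 6 but 4689 of all genes at an unadjusted p under 0.05, and 0 of the 6 by limma-voom. The interaction term was 0.89 for S100b (SE 0.81; 0.56 without HT negative replicate 3 to 1.42 without HT negative replicate 2). For Fabp7 it was 0.77 (SE 1.23; 0.34 without MexHT negative replicate 5 to 1.55 without MexHT negative replicate 1), so the order of these genes changed with 1 library. For Apod it was 0.47 (SE 0.66; 0.20 without HT negative replicate 1 to 0.93 without MexHT negative replicate 1). Standard errors near or above the terms mean that differences of this size were not detectable with these libraries.

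By level across the 17 gg8+OMP libraries, the members split into those 2 patterns. The Pearson correlation of log2(TPM + 1) was 0.87 between Fabp7 and Npy and 0.88 between Apod and Frzb, but -0.29 between Fabp7 and Apod and -0.32 between Npy and Apod. Sox10 was closest to Frzb (0.80) and S100b to Apod (0.75). These libraries share mice and fractions, so the values describe the pattern and carry no test. After each group's mean was subtracted, all 15 pairs of members were positive, from 0.60 to 0.84: a library high in 1 of these genes for its group tended to be high in the others, and MexHT negative replicate 1 and OSN replicate 4 were part of that.

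The genes nearest to each member were sought among all with a mean of at least 1 TPM. They were picked by correlation over these same libraries, so they follow the member's pattern by selection. Nearest to Fabp7 by level were Mmd2 (0.96), Ttyh1 (0.95) and Acsbg1 (0.94), and nearest to Npy were Ttyh1, Phactr3 and Mmd2 (0.86 to 0.87). Ttyh1 codes for a membrane protein of glia and neural precursors, and Acsbg1 for an acyl-CoA synthetase of brain lipid metabolism. Nearest to Apod were Inmt and Pam (both 0.98) and Gpx6 (0.98), where Pam codes for the enzyme that amidates peptides and Gpx6 for a glutathione peroxidase of olfactory tissue. Inmt, an amine methyltransferase, averaged 245 ± 248 TPM (SD, n = 5) in MexHT negative libraries and 5.77 ± 3.91 TPM (SD, n = 6) in MexHT OSN libraries. Among the nearest to Frzb were Nr2f1 and Mal (both 0.92), nearest to Sox10 were Reln, Luzp2 and Scd1 (0.89 to 0.90), and nearest to S100b were Kank4, Glt8d2 and Lmcd1 (0.88 to 0.90). By deviation from group means, Ttyh1 and Acsbg1 were among the 3 nearest genes of both Fabp7 (0.95 and 0.96) and Sox10 (both 0.91).

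Of 20 other genes known from ensheathing glia and Schwann cells, 19 were tested between MexHT fractions: 0 were called higher and 7 lower. Of all genes 35.8% were called higher and 27.6% lower there. The median difference of the list was 0.05 beside 0.16 for all genes. Among the 7 were Ngfr, the p75 neurotrophin receptor (-2.10), Erbb3, the neuregulin receptor of Schwann cells (-1.31), Metrn (-1.28), Fbln2 (-1.12), Gfap, the glial intermediate filament protein (-0.89), and Pmp22 (-0.71). Ngfr was at 0.648 to 1.85 TPM in the 6 OSN libraries and 6.72 to 10.4 TPM in the 5 negative libraries, and Erbb3 at 6.02 to 12.7 TPM against 17.4 to 33.0 TPM, neither with overlap. With the mouse as a block 6 were called lower, without Pmp22 (limma, adjusted p = 0.0546), and 3 higher: Gpm6b (0.65, 0.00986), Ttyh1 (1.21, 0.0193) and Matn2 (0.60, 0.0378). Without negative replicate 1 alone 5 were called lower and 5 higher. Without the 2 libraries 8 were called lower and 3 higher: Ttyh1 (1.31, limma adjusted p = 0.00558), Kcnj10, a glial potassium channel (1.126, 0.00518), and Aldoc, a glycolytic enzyme of astrocytes (0.76, 0.0244). Foxd3, a neural crest factor, stood at 12.5 TPM in OSN replicate 4, against 0.715 to 2.59 TPM in the other 5 OSN libraries.

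Between HT fractions 17 of the 20 were tested, and 0 were called higher and 2 lower, among them Fbln2 (-1.02). Of all genes 2.18% were called higher and 9.11% lower there. The median of the list was -0.01 beside 0.10 for all genes. With the mouse as a block 5 were lower, and Gldn (1.54), Kcnj10 (1.81) and Pmp22 (1.43) were higher (limma, adjusted p = 0.019, 0.0494 and 0.0228). With all 4 groups in 1 fit 4 were lower and 1 higher, and leaving out any 1 library but negative replicate 2 left 1 call. Between gg8 fractions 3 of 17 were called lower, among them Matn2 (-2.73) and Fbln2 (-2.72), and 0 higher, with a median of -0.61 beside 0.09; a pseudocount of 0.1 gave 0 calls, as did leaving out any library but OSN replicate 1, and no filter on low values gave 1. Of all genes 7.20% were called lower between gg8 fractions. Pmp22 was the 1 gene of the list called between MexHT and HT OSN (-2.14, limma adjusted p = 0.0022) and in the interaction (-2.14, 0.016). Of all genes 36.8% and 12.4% were called in these 2 comparisons. For Pmp22, HT OSN libraries held 35.4 ± 27.2 TPM (SD, n = 3) and MexHT OSN libraries 6.15 ± 1.80 TPM (SD, n = 6). With Xist as a covariate 0 of the list were called between MexHT and HT OSN, and in the interaction 0 were called without HT negative replicate 2. Between MexHT and HT OSN the count was 2 with no filter on low values, with the replicate block and without HT OSN replicate 3, and 4 without MexHT OSN replicate 5.

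**Figure D4:**
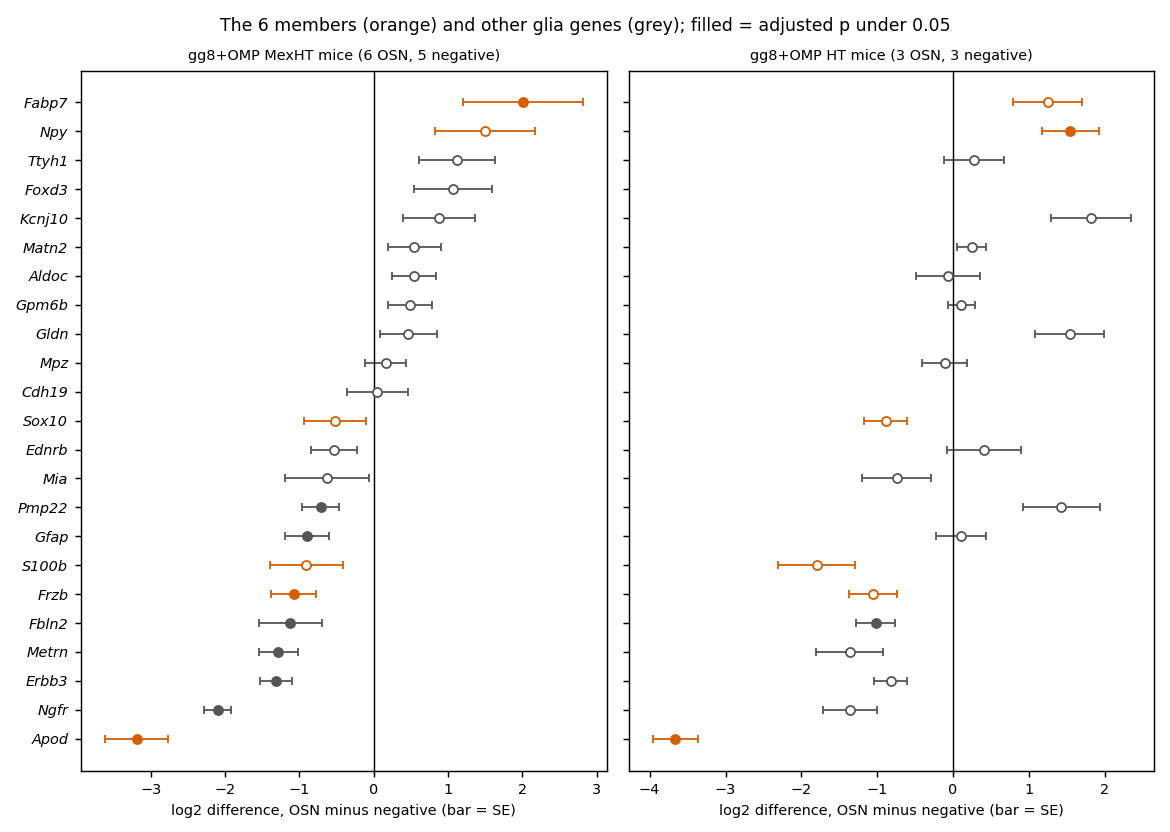
Difference in log2(TPM + 1) between OSN and mCherry-negative libraries for the 6 members (orange) and other glia genes (grey), with the standard error from limma as the bar, for MexHT mice at the left and HT mice at the right; filled points had an adjusted p under 0.05. Fabp7 and Npy sit at the upper end and Apod at the lower end in the MexHT mice, with the other glia genes shown spread between -2.10 and 1.12.

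Other genes expressed by glia, pigment cells and relatives of the members place these values, beside 35.8% of all genes called higher and 27.6% lower between MexHT fractions. Of 7 genes of myelin, which ensheathing glia do not make, 6 were tested between MexHT fractions, with Mbp (0.74) and Pllp (1.25) called higher and Cnp (-0.60), Egr2 (-1.57) and Prx (-1.40) lower, and Mog was at 3 reads or fewer in every library of that comparison. Melanocytes share Sox10 and a crest origin; of 6 melanocyte genes 3 were tested, Mitf was called higher (1.39), and Tyrp1 was at 3 reads or fewer in all 11 libraries. Sox9 and Sox2, relatives of Sox10 used by epithelial stem and supporting cells, were both called lower in MexHT OSN (-3.55 and -2.34), at 3.32 ± 0.72 and 10.8 ± 13.5 TPM (SD, n = 6) against 51.6 ± 20.2 and 39.0 ± 6.83 TPM (SD, n = 5). Sox8, which forms the SoxE group with Sox9 and Sox10, was not called (-0.50).

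Relatives in the other families mostly lay lower in OSN. Of all genes 27.6% were called lower and 35.8% higher between MexHT fractions, shares to read these counts against. Of the S100 family with the receptor Ager, 9 of 11 were called lower and 0 higher between MexHT fractions, led by S100a8 (-6.02) and S100a9 (-5.65), proteins of neutrophils. Of 7 secreted Wnt antagonists tested, 6 were called lower, among them Sfrp4 (-5.48) and Wif1 (-4.74), and Sfrp5 was not (0.51). Of the lipocalin family of Apod, Lcn2 (-6.30), Ptgds (-3.83), Obp2a (-3.80) and Rbp4 (-1.61) were all called lower, 4 of 4 listed. The list also held 2 genes of other families: Apoe, an apolipoprotein and no relative of Apod, was called higher (1.00), and Bsg, a receptor of Apod, was not called (-0.22). Fabp3 (-1.28) and Fabp4 (-1.45) were called lower, opposite to Fabp7, and Fabp5, which is made in many cells, was not (0.51). Between the constructs, Fabp5 was called higher in MexHT OSN, at 129 ± 46 TPM (SD, n = 6) against 45.7 ± 20.8 TPM (SD, n = 3; 1.51, limma adjusted p = 0.0061).

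For the neuropeptide, the receptor Npy1r and the peptidase Dpp4, which trims Npy, were the 2 of 7 genes tested between MexHT fractions, and both were called lower in OSN (-1.47 and -2.05). Npy1r was at 0.257 ± 0.122 TPM (SD, n = 6) in MexHT OSN and 2.70 ± 1.30 TPM (SD, n = 5) in MexHT negative libraries. The receptors Npy2r, Npy4r, Npy5r and Npy6r and the related peptide Pyy were at 3 reads or fewer in each of these 11 libraries.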

How the data were processed

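RNA was extracted with TRIzol and 10 ng was made into libraries with a Takara SMARTer kit for small inputs of total RNA that keeps strand, per the labels' protocols. The authors deposited 1 TPM table for each driver set; FastQC, cutadapt, STAR, bedtools and mm10 appear in the submitters' processing notes. The counter, annotation and strand setting are not given in the sources used here. TPM values were tested as log2(TPM + 1) with limma 3.58.1 (R 4.3.3), after leaving out genes whose mean in the fitted libraries was under 1 TPM, with Benjamini-Hochberg adjustment over all genes tested and a two-sided threshold of 0.05; "called" means past it. Rows with date-like names (27 per table) were left out. Whole reads recovered from the TPM steps fitted 100.0% of genes in the gg8+OMP table (within 0.002 of a whole number) and 99.86% in the gg8 table (within 0.02); they served for depth, floors of 3 reads and limma-voom. The tests and the recovery were also run on simulated data, and the outcome is not reported here. The libraries simulated for the tests were drawn independently, without shared mice or outlying libraries.

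Members, relatives and marker lists were chosen with earlier results of these data known. Genes named are the 6 members, any gene of those lists, and the 3 nearest genes by Pearson correlation for each member, passing over predicted genes; 2 genes that this rule would name are not reported here. OSN and negative libraries with the same number came from 1 mouse, per the labels; their deviations from group means correlated at -0.11 to 0.42 (MexHT), 0.17 to 0.47 (HT) and 0.02 (gg8), and the fit with the mouse as a block was an alternative. Alternatives were the pseudocount, filter, scaling, limma-voom, the block, all 4 groups in 1 fit, Xist as a covariate and leaving out each library. Whether the libraries within a group were separate litters is not stated, so p-values measure the spread between these libraries. The main fits between fractions and of the interaction treat the 2 libraries of 1 mouse as independent. The depth limits low genes: 7 of the 8 gg8+OMP negative libraries held 3 reads of Npy or fewer.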

Additional observations from a re-analysis of the deposited data

Results flagged for a closer look

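In 12 combinations of a glia gene and a group of 5 or 6 libraries, the highest or lowest library was compared with its nearest neighbour, relative to the range of the group. For normally distributed values, chance alone sets 1 library apart in about 1 in 20 groups. The comparison was made on TPM and not on the log2 scale of the tests. TPM values have a long upper tail, which sets high libraries apart more often, so that rate is no measure for the count below. In 7 of the 12 a library stood apart, each time on the high side. MexHT negative replicate 1 did so for S100b (30.9 TPM, next 8.25), Fabp7 (140.8 TPM, next 14.6), Npy (13.2 TPM, next 1.57), Sox10 (14.0 TPM, next 5.31) and Apod (773.1 TPM, next 260.6). MexHT OSN replicate 4 did so for Fabp7 (272.5 TPM, next 93.4) and Sox10 (10.6 TPM, next 4.90). The 7 values come from 2 libraries and are not independent.

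Fabp7 was higher in the OSN fraction in all 3 HT mice of the gg8+OMP drivers (mean log2 difference 1.25) and lower in both gg8 MexHT mice (mean -1.67, of which 1 mouse was at -0.02). The difference between these kinds of mice was not tested, and they differ in driver, construct and library date.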

How the results depend on the processing

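Between MexHT fractions 2 to 4 of the 6 members were called under every alternative and with any library left out. Apod and Frzb were called in each of these fits. With the libraries left out 1 at a time, the count of members called was 1 to 3 between HT fractions, 0 to 3 between gg8 fractions and 0 to 2 between MexHT and HT OSN. A pseudocount of 0.1 and limma-voom each gave 1 between HT fractions and 0 between gg8 fractions, and all 4 groups in 1 fit gave 1 between HT fractions; Npy and Apod were the calls lost. The mouse as a block gave 4 between MexHT fractions and changed no other call of a member between fractions. Between MexHT and HT OSN, whose numbers are shared by different mice (correlations -0.23 to 0.13), the replicate block gave 1 call (Apod, 1.11, adjusted p = 0.0363). In the negative cells and in the interaction every fit gave 0.

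Some differences that were not called turned direction. With Xist as a covariate S100b was -0.10 between MexHT and HT OSN and 0.98 between the negative cells. Leaving out libraries, Npy between gg8 fractions ran from -1.55 to 0.36; between negative cells Fabp7 ran from -0.36 to 0.85 and Apod from -0.11 to 0.62; in the interaction Npy ran from -0.38 to 0.58 and Frzb from -0.25 to 0.17. The interaction of Frzb was also 0.19 with a pseudocount of 0.1 and 0.057 with limma-voom, and that of Npy 0.19 with the replicate block and 0.32 without both MexHT negative replicate 1 and OSN replicate 4, an alternative chosen after seeing the data. The cause was not tested. Of 556 alternative values of single members, 495 kept direction and side of the threshold. Where a fit left 1 library in a group, that library was assumed to vary like the others. Depth limits Npy, Frzb and S100b most, with libraries at 3 reads or fewer.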

Other observations

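Between MexHT fractions most lists of markers of the other cells of the tissue lay lower in sorted OSN. Sustentacular genes went in mixed directions, as the glia genes did. All 9 fibroblast and vessel genes, 7 of 7 cartilage and bone genes and 5 of 5 horizontal basal genes were called lower. So were 5 of 5 gland genes and 5 of 6 microvillous and tuft genes, and 0 of each list were called higher. The median differences of these lists were -4.95, -4.15, -4.34, -3.45 and -3.71 in that order. Of all genes 27.6% were called lower there. Of 8 sustentacular genes 2 were called lower, with a median of -0.03. Of 8 immune genes 5 were called lower and 1, C1qb, a complement gene of macrophages, was higher (1.08, limma adjusted p = 0.034). Mature OSN genes gave 1 of 6 higher and immature OSN genes 5 of 6 higher.

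Between HT fractions, where C1qa (3.51), C1qb (3.65) and Cx3cr1 (3.46) were called higher in OSN, Apoe was too, at 4682 ± 3055 TPM (SD, n = 3) against 446.5 ± 145.6 TPM (SD, n = 3). Of 8 sustentacular genes 6 lay above 0 between these fractions, with a median of 1.71, and 0 were called.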
